A study of Mus musculus with 6 samples.

Results

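The genes described here encode 10 enzymes that build purine and pyrimidine nucleotides from simple precursors. They were taken by name from the 54532 genes of an RNA sequencing table of mouse heart, with earlier results of these data known. The 7 purine genes were Ppat, Gart, Pfas, Paics, Adsl, Atic and Impdh2, and the 3 pyrimidine genes were Cad, Dhodh and Umps. All 10 were detected in every heart, at 1.25 to 57.8 FPKM (fragments per kilobase of gene, scaled by a library size that the deposited values imply, a level that is comparable between genes of different length), from 148 to 4389 reads. The study deleted Mrps5, which encodes a subunit of mitochondrial ribosomes, in adult cardiomyocytes and compared the RNA of 3 control hearts (Ctrl) with that of 3 conditional knockout hearts (cKO). Ctrl mice were Mrps5 fl/fl, with both Mrps5 alleles flanked by loxP sites. The cKO mice were Mrps5 fl/fl with MCM, the αMHC-MerCreMer transgene, which expresses a tamoxifen-inducible Cre recombinase in cardiomyocytes. Mice of both groups received intraperitoneal tamoxifen from 8 weeks of age, at 45 mg per kg per day for 5 days, and hearts were taken 12 weeks after tamoxifen. The age at sampling in the methods does not match these times. The controls were littermates without MCM, so the transgene and the deletion cannot be told apart. The tissue was ventricular by the methods, and it contained cells other than cardiomyocytes, in which the transgene is not active.

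De novo purine synthesis assembles the purine ring step by step on phosphoribosyl pyrophosphate (PRPP) until inosine monophosphate (IMP) is formed, with glutamine, glycine, aspartate and formyl groups carried by tetrahydrofolate as donors. IMP is then converted to AMP or to GMP. Pyrimidine synthesis makes the ring first, attaches it to PRPP and yields uridine monophosphate (UMP), and 1 of its steps takes place at the inner mitochondrial membrane. Adult cardiomyocytes rarely divide, and the heart is known to cover much of its nucleotide need by salvage of preformed bases and nucleosides.

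In cKO hearts, 6 of the 10 genes rose (Gart, Adsl, Atic, Impdh2, Cad and Umps), 1 fell (Ppat) and 3 did not pass the test (Pfas, Paics and Dhodh). By comparison, 33.3% of the 12944 genes tested passed it, 16.3% higher and 17.0% lower in cKO. The 10 genes had been chosen with earlier results of these data known, so these shares are given for reference only. The test was limma on log2(FPKM + 1), a scale on which changes of weakly expressed genes appear smaller than they are, at a Benjamini-Hochberg adjusted p under 0.05 over all genes tested, and all 10 genes passed the filter of a mean of at least 0.5 FPKM. The median difference of the 10 genes was 0.33 on this log2 scale, where that of all genes tested was -0.02. The FPKM of the 3 cKO hearts did not overlap with that of the 3 Ctrl hearts for 8 of the 10 genes, 6 of them higher and 2 lower, against 51.2% of all genes tested (24.8% higher and 26.4% lower). When cKO replicate 2 was left out, 5 of the 10 genes were called higher and 1 lower. The calls of Atic, Impdh2, Cad and Umps were kept in all 14 alternatives and with scaling to total reads. These are RNA levels, and enzyme amounts or activities were not analysed here.

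The hearts were checked before the genes were compared. The 6 libraries held 15989322 to 24875499 reads, with overlapping totals in both groups. The library size behind the deposited FPKM was not this total: it was 0.9133 to 0.9795 of it in Ctrl and 1.059 to 1.062 times it in cKO libraries, so cKO levels are lower relative to Ctrl than under scaling to total reads. With that scaling, an alternative chosen after seeing the data, the median log2 difference of all genes tested moved from -0.02 to 0.09, with 3274 higher and 1381 lower. Of the 10 genes, the same 6 were then higher and Ppat was no longer called. Mrps5 itself ranged from 5.20 to 6.45 FPKM over the Ctrl hearts and from 1.12 to 1.31 FPKM over the cKO hearts. The methods describe male mice, but cKO replicate 2 had Xist at 10.7 FPKM and no reads of Kdm5d, Uty, Ddx3y and Eif2s3y on the Y chromosome. This library also stood apart over all genes, with a mean chi-square per gene of 47.3 and 44.9 against the other 2 cKO libraries, which differed from each other by 18.1, and values of 14.3 to 18.3 among the Ctrl libraries. Of 10 cardiomyocyte markers (Myh6, Tnnt2 and others), 6 were lower and 0 higher in cKO, with a summed level of 19540 to 24684 FPKM over the Ctrl and 12492 to 20400 FPKM over the cKO hearts. Of 7 endothelial markers, 4 were lower (summed level 132 to 155 and 88.7 to 105 FPKM). Of 8 fibroblast markers, 2 were higher and 1 was lower (683 to 712 and 443 to 590 FPKM). Most of that sum was the uncalled Gsn, at means of 458 FPKM in Ctrl and 323 FPKM in cKO hearts. Col1a1 (15.0 and 27.7 FPKM) and Postn (3.34 and 6.71 FPKM) were the higher ones, and Dcn (104 and 69.1 FPKM) the lower one. Of 8 macrophage markers 1 was lower (311 to 428 and 245 to 368 FPKM). Of the 5 tested among 6 smooth muscle and pericyte markers 1 was higher and 2 were lower (167 to 184 and 104 to 133 FPKM). The higher one was Acta2, at means of 18.7 FPKM in Ctrl and 36.0 FPKM in cKO hearts. The lower ones were Rgs5 (123 and 58.3 FPKM), the largest part of that sum, and Kcnj8 (19.3 and 11.3 FPKM). All 4 atrial markers were uncalled, and their sum varied between hearts of either group (128 to 2052 and 575 to 1652 FPKM). Myl7 was at 679, 98.6 and 18.1 FPKM in Ctrl and 71.8, 170 and 495 FPKM in cKO hearts. Myl4 and Sln were likewise highest in Ctrl replicate 1 and cKO replicate 3, and Nppa in Ctrl replicate 1 and cKO replicate 2. Nppa made up most of the sum in each cKO heart, at 469, 1127 and 938 FPKM. The study also uses Nppa as a marker of cardiac hypertrophy and reports it raised in cKO hearts. The sum therefore does not stand for atrial tissue alone. Whether the hearts held unequal amounts of atrial tissue was not tested. No marker of these 6 lists was at 0 in any heart. The part of cell composition in the differences between the groups was not tested, and in bulk RNA fewer cells of a type and less RNA per cell cannot be told apart.

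Nucleotide synthesis is known to run high in dividing cells, so markers of cycling cells were read beside it. None of the 10 cycling markers (Mki67, Top2a, Cdk1 and others) passed the filter, and no single value was above 0.860 FPKM. Their summed level was 1.95 to 3.72 FPKM in Ctrl and 0.870 to 2.44 FPKM in cKO hearts, so the ranges overlapped. Cenpf was the only cycling marker without overlap, at 0.629, 0.713 and 0.860 FPKM in Ctrl and 0.0689, 0.0583 and 0.242 FPKM in cKO hearts. The 5 lymphocyte markers were all below the filter as well, at a summed 0.154 to 0.607 and 0.116 to 0.803 FPKM, and 1 of them was at 0 in all 6 hearts.

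**Figure D1:**
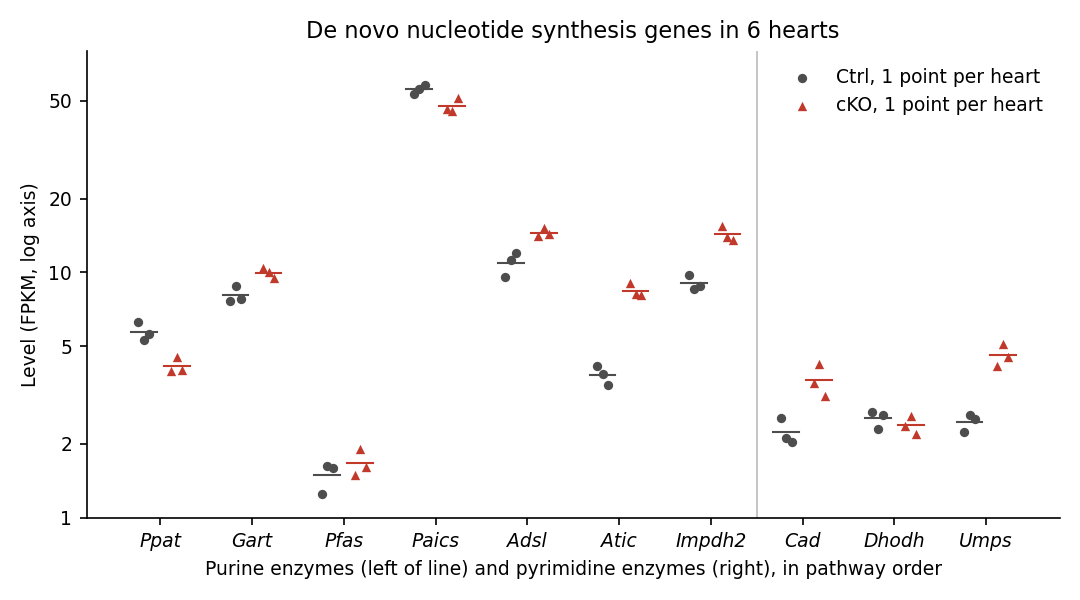
Level of the 10 genes in FPKM (log axis), with 1 point for each of the 3 Ctrl (circles) and 3 cKO (triangles) hearts and a line at the group mean, purine enzymes left and pyrimidine enzymes right of the grey line, in pathway order. The 3 cKO points lie above all Ctrl points for Gart, Adsl, Atic, Impdh2, Cad and Umps and below them for Ppat and Paics, and the points overlap for Pfas and Dhodh.

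The levels of the 10 genes covered a wide range within a heart. In Ctrl hearts Paics was the highest, at a mean of 55.7 FPKM, followed by Adsl at 10.9, Impdh2 at 9.06, Gart at 8.08, Ppat at 5.72, Atic at 3.83, Dhodh at 2.54, Umps at 2.46, Cad at 2.23 and Pfas at 1.49 FPKM. Neighbours in this order did not overlap over the 3 hearts, with the exception of Adsl and Impdh2, Impdh2 and Gart, Dhodh and Umps, and Umps and Cad. In cKO hearts the order began with Paics, Adsl, Impdh2 and Gart as in Ctrl, and then ran Atic, Umps, Ppat, Cad, Dhodh and Pfas. There the overlapping neighbours were Adsl and Impdh2, Umps and Ppat, and Ppat and Cad. The place of Impdh2 in both orders depends on how reads were divided between it and its pseudogene Impdh2-ps, described below. The coefficient of variation over the 3 hearts was 3.98% to 14.2% in Ctrl and 3.46% to 15.1% in cKO, lowest for Paics in Ctrl and Adsl in cKO, and highest for Pfas in Ctrl and Cad in cKO.

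The sequence around the start sites of the genes was also examined. RefSeq promoter windows of the GRCm38.p6 build, from 250 bases before to 50 bases from the start of transcription on, were at hand for 8 of the 10 genes, all except Pfas and Dhodh. The motifs searched, on both strands, were CACGTG (the E-box bound by MYC with MAX), TGATGNAA (bound by ATF4 with C/EBP proteins) and CCGGAA (bound by ETS factors). The E-box was found in 3 of the 8 windows and in 7.15% of all 32851 windows of the table. It was in Atic and Impdh2, which rose, and in Paics, which did not pass the test. The ETS motif was found in another 3 of the 8, and in 14.9% of all windows. These were Gart and Umps, which rose, and Ppat, which fell. The letters TGATGNAA were in none of the 8 windows and in 3.97% of all. The 8 windows had 53.0% to 69.7% G and C, and the median of all windows was 52.7%. The shares of all windows were not matched for G and C. A match to 6 letters is a description of the window, and binding was not measured.

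The windows of 5 genes are shown, 5′ to 3′ on the strand of the gene, with the motif in capitals. Ppat and Paics are shown because they are neighbours and were the 2 genes whose cKO hearts were all below the Ctrl hearts, Atic and Impdh2 as the purine genes with the largest increase, and Umps as the pyrimidine gene with the largest increase. The capitals mark the E-box in Paics (first base 203 bases before the start), Impdh2 (110 before) and Atic (7 before), CCGGAA in Umps (32 before) and the reverse complement of CCGGAA in Ppat (16 before).
Ppat, chr5:76951529-76951828, minus strand: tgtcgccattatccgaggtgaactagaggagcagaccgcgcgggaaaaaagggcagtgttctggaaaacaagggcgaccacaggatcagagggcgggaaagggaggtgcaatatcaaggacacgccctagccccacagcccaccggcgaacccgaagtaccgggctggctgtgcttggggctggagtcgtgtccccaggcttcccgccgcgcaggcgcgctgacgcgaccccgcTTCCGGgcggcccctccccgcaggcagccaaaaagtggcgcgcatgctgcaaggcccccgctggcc
Paics, chr5:76951052-76951351, plus strand: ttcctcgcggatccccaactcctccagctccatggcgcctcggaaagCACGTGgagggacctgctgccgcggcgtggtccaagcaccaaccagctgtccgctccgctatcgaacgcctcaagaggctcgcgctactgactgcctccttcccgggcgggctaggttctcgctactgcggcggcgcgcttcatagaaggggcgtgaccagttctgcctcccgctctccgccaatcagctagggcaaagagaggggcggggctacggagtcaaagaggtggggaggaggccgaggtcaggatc
Atic, chr1:71556906-71557205, plus strand: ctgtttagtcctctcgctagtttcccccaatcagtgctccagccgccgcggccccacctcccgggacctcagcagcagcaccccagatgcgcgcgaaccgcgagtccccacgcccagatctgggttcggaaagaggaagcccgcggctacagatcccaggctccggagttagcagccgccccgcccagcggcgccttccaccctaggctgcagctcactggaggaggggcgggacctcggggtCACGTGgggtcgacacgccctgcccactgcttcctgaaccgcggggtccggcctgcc
Impdh2, chr9:108560186-108560485, plus strand: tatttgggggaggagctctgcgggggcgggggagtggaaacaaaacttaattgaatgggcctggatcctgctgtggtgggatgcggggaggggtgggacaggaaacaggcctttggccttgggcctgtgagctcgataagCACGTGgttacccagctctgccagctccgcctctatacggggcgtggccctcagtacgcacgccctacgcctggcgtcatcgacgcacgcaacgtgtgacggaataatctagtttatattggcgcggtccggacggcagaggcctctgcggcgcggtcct
Umps, chr16:33966989-33967288, minus strand: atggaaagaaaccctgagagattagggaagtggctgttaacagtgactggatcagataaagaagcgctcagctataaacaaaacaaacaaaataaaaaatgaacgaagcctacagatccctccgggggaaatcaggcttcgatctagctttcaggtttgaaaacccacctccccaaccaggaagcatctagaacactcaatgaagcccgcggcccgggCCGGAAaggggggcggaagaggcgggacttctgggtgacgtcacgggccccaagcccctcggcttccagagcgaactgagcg

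Among the other windows, that of Gart held the reverse complement of CCGGAA from base 35 after the start on, and those of Adsl and Cad held none of the 3 motifs. By the RefSeq starts, Paics and Ppat begin 276 bases apart on opposite strands and read towards each other at their first exons, so that the window of each lies inside the other gene.

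The first enzyme of purine synthesis fell. Ppat encodes amidophosphoribosyltransferase, which commits PRPP to the purine pathway. The gene (ENSMUSG00000029246, GRCm38 chromosome 5, 76913249 to 76951578, minus strand, 12 exons in the transcript with the most exons) had levels of 6.25, 5.30 and 5.60 FPKM in Ctrl hearts against 3.97, 4.54 and 3.99 FPKM in cKO hearts. All cKO hearts were below all Ctrl hearts. The mean fell from 5.72 ± 0.488 to 4.17 ± 0.325 FPKM (SD, n = 3 each), 0.729 of the Ctrl level, with a log2 difference of -0.38 (SE 0.0862, limma adjusted p 0.0165). The call was lost without Ctrl replicate 1 (-0.32, limma adjusted p 0.0551) and without cKO replicate 3 (-0.35, limma adjusted p 0.0526). It was also lost with scaling to total reads (-0.25, limma adjusted p 0.0860). The gene overlaps the first 272 bases of Paics, all exonic in both genes. A further antisense gene, 2310040G07Rik, overlaps 19391 bases of Ppat without shared exon bases, and had levels of 2.39, 3.95 and 3.76 FPKM in Ctrl hearts against 0.822, 0.704 and 1.51 FPKM in cKO hearts (log2 difference -1.12, limma adjusted p 0.00668). The library steps in the methods name no marking of strand, so reads of Ppat and Paics may not be told apart within their shared bases.

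Gart, next in the pathway, encodes a protein with several activities that adds glycine, transfers a formyl group from tetrahydrofolate and closes the first ring. Its level (ENSMUSG00000022962, chromosome 16, 91621186 to 91646952, minus strand, 22 exons) was 7.65, 8.78 and 7.82 FPKM in Ctrl hearts against 10.4, 10.01 and 9.47 FPKM in cKO hearts. The groups did not overlap, and the lowest cKO heart was close to the highest Ctrl heart. The mean rose from 8.08 ± 0.609 to 9.96 ± 0.471 FPKM, 1.23 times the Ctrl level (log2 difference 0.27, SE 0.0787, limma adjusted p 0.0367). This was the least stable call of the 10 genes: it was lost in 7 of 14 alternatives, among them without Ctrl replicate 1 (limma adjusted p 0.114), Ctrl replicate 3 (0.108), cKO replicate 1 (0.0927), cKO replicate 2 (0.0669) and cKO replicate 3 (0.0576).

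Pfas encodes formylglycinamidine ribonucleotide synthase, the enzyme that follows with glutamine as donor, and had the lowest level of the 10 genes in both groups. It (ENSMUSG00000020899, chromosome 11, 68985697 to 69008460, minus strand, 28 exons) had levels of 1.25, 1.63 and 1.60 FPKM in Ctrl hearts against 1.50, 1.90 and 1.61 FPKM in cKO hearts, from 189 to 352 reads. The groups overlapped. The log2 difference was 0.10 with a 95% confidence interval from -0.14 to 0.33 (limma adjusted p 0.481), and no difference was detectable within that interval.

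Paics was the most abundant of the 10 genes and was lower in cKO without passing the test. It encodes the enzyme that carboxylates the ring and joins aspartate to it. The gene (ENSMUSG00000029247, chromosome 5, 76951307 to 76967509, plus strand, 10 exons) had levels of 53.4, 55.9 and 57.8 FPKM in Ctrl hearts against 46.2, 45.5 and 51.3 FPKM in cKO hearts. All cKO hearts were below all Ctrl hearts, at means of 55.7 ± 2.21 and 47.6 ± 3.17 FPKM, 0.855 of the Ctrl level. The log2 difference was -0.22 (95% confidence interval -0.41 to -0.04, limma adjusted p 0.0659), and the adjusted p lay between 0.0572 and 0.246 in the 14 alternatives. The difference was -0.14 without the mtDNA-encoded genes in the scaling and -0.07 with scaling to total reads.

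Adsl and Atic complete the path to IMP, and both rose. Adsl encodes adenylosuccinate lyase, which removes fumarate both on the way to IMP and on the way from IMP to AMP. It (ENSMUSG00000022407, chromosome 15, 80948490 to 80970946, plus strand, 13 exons) had levels of 9.58, 11.2 and 12.0 FPKM in Ctrl hearts against 14.1, 15.1 and 14.3 FPKM in cKO hearts. No cKO heart was as low as any Ctrl heart. The mean went from 10.9 ± 1.23 to 14.5 ± 0.502 FPKM, 1.33 times (log2 difference 0.38, SE 0.0923, limma adjusted p 0.0196), and the call was lost without Ctrl replicate 1 (limma adjusted p 0.0514) and without Ctrl replicate 2 (0.0527).

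Atic had the largest increase of the 10 genes. It encodes the enzyme that adds the second formyl group from tetrahydrofolate and closes the ring to IMP. The gene (ENSMUSG00000026192, chromosome 1, 71557150 to 71579631, plus strand, 16 exons) had levels of 4.17, 3.85 and 3.48 FPKM in Ctrl hearts against 9.03, 8.14 and 8.09 FPKM in cKO hearts. The lowest cKO heart was well above the highest Ctrl heart, by far more than the spread within either group. The mean rose from 3.83 ± 0.344 to 8.42 ± 0.530 FPKM, 2.20 times (log2 difference 0.96, SE 0.0840, limma adjusted p 0.000941). On recovered reads with voom, which has no pseudocount of 1 FPKM, the log2 difference was 1.17.

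Impdh2 stands at the branch from IMP to GMP, where it encodes the IMP dehydrogenase that makes xanthosine monophosphate. It (ENSMUSG00000062867, chromosome 9, 108560286 to 108565584, plus strand, 14 exons) had levels of 9.77, 8.56 and 8.84 FPKM in Ctrl hearts against 15.5, 13.9 and 13.6 FPKM in cKO hearts, without overlap. The mean rose from 9.06 ± 0.631 to 14.3 ± 1.01 FPKM, 1.58 times (log2 difference 0.61, SE 0.0830, limma adjusted p 0.00302). The value is uncertain in how reads were divided, because 1337 of its 3400 distinct 50-base words (39.3%) also occur in the processed pseudogene Impdh2-ps (chromosome 8, 100030558 to 100032102). Impdh2-ps was listed at 8.86, 7.19 and 8.03 FPKM in Ctrl and 13.2, 11.8 and 11.8 FPKM in cKO hearts (log2 difference 0.56, limma adjusted p 0.00553). Both together had 834, 779 and 958 reads in Ctrl and 1151, 1427 and 1509 reads in cKO hearts, so the reads of both were more in each cKO heart than in any Ctrl heart however they were split. Impdh2 also overlaps 48 bases of the opposite-strand gene Ndufaf3, which was at 12.0 to 13.3 FPKM in Ctrl and 11.8 to 12.5 FPKM in cKO hearts.

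The pyrimidine genes began with a rise. Cad encodes the protein that carries the first activities of the pathway, carbamoyl phosphate synthetase, aspartate transcarbamylase and dihydroorotase. It (ENSMUSG00000013629, chromosome 5, 31054780 to 31078479, plus strand, 44 exons) had levels of 2.54, 2.11 and 2.04 FPKM in Ctrl hearts against 3.53, 4.23 and 3.14 FPKM in cKO hearts. The cKO hearts were all higher and more spread, with cKO replicate 2 the highest. The mean rose from 2.23 ± 0.271 to 3.63 ± 0.550 FPKM, 1.63 times (log2 difference 0.52, SE 0.111, limma adjusted p 0.0131), and the voom difference on reads was 0.74.

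Dhodh encodes dihydroorotate dehydrogenase, the step at the inner mitochondrial membrane, which passes electrons to ubiquinone. It (ENSMUSG00000031730, chromosome 8, 109591343 to 109608673, minus strand, 9 exons) had levels of 2.69, 2.30 and 2.62 FPKM in Ctrl hearts against 2.36, 2.61 and 2.20 FPKM in cKO hearts. The groups overlapped, at means of 2.54 ± 0.205 and 2.39 ± 0.208 FPKM. The log2 difference was -0.06 with a 95% confidence interval from -0.26 to 0.14 (limma adjusted p 0.611), and its sign turned with the scaling (0.0017 without the mtDNA-encoded genes and 0.05 with total reads).

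Umps, which encodes the enzyme that turns orotate into UMP, had the second largest increase of the 10 genes. It (ENSMUSG00000022814, chromosome 16, 33954782 to 33967038, minus strand, 6 exons) had levels of 2.23, 2.62 and 2.52 FPKM in Ctrl hearts against 4.17, 5.11 and 4.53 FPKM in cKO hearts. The groups were well apart. The mean rose from 2.46 ± 0.204 to 4.60 ± 0.476 FPKM, 1.88 times (log2 difference 0.70, SE 0.0907, limma adjusted p 0.00271), and the voom difference on reads was 0.94.

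**Figure D2:**
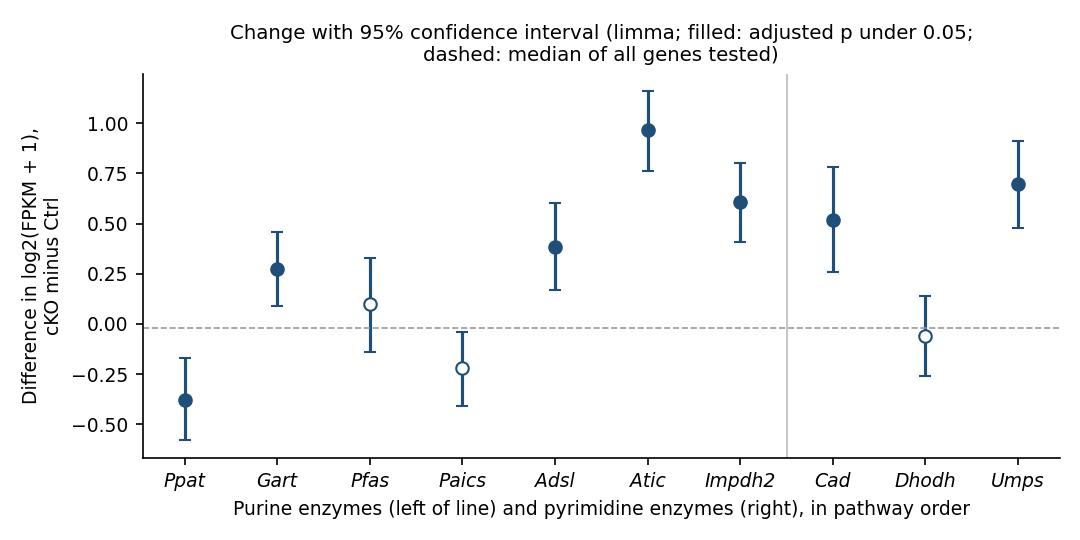
Difference between cKO and Ctrl hearts in log2(FPKM + 1) for each of the 10 genes, with the 95% confidence interval from limma (bars), filled points for an adjusted p under 0.05, and a dashed line at the median of all genes tested (-0.02). The filled points run from -0.38 for Ppat to 0.96 for Atic, and the open points are Pfas, Paics and Dhodh.

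Along the purine path 1 gene fell, 4 rose and 2 did not pass, and along the pyrimidine path 2 rose and 1 did not pass. The summed level of the 7 purine genes, most of it Paics, was 92.1, 95.2 and 97.1 FPKM in Ctrl and 101, 99.1 and 102 FPKM in cKO hearts. Reads listed under Impdh2-ps are left out of the purine sums. Without Paics the sum of the other 6 was 38.7, 39.3 and 39.3 FPKM in Ctrl and 54.5, 53.6 and 51.0 FPKM in cKO hearts, at means of 39.1 ± 0.372 and 53.0 ± 1.82 FPKM. For the 3 pyrimidine genes the sum was 7.45, 7.03 and 7.17 FPKM in Ctrl and 10.1, 12.0 and 9.87 FPKM in cKO hearts (7.22 ± 0.213 and 10.6 ± 1.15 FPKM).

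Genes around the pathway were read from 9 further lists, also chosen with earlier results known, of which 66 of 76 genes were tested. Of these, 21 rose and 15 fell in cKO, with a median log2 difference of 0.16, against the 16.3% higher and 17.0% lower of all genes tested. The lists differed in composition, and each is given below by its counts and by the members that changed most.

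Among 5 tested genes for the supply of PRPP, the shared precursor, 1 was called lower and 0 higher. Their summed level was 33.3 to 36.8 FPKM in Ctrl and 35.8 to 35.9 FPKM in cKO hearts, so the ranges overlapped. The gene that fell was Prps2, a PRPP synthetase, at 6.51, 7.23 and 6.12 FPKM in Ctrl and 2.68, 3.41 and 2.76 FPKM in cKO hearts (log2 difference -0.95, limma adjusted p 0.00148). Its isoform Prps1 was at 13.3 ± 0.749 FPKM in Ctrl and 15.5 ± 0.549 FPKM in cKO hearts and did not pass (limma adjusted p 0.0596), though it did at 0.36 with scaling to total reads (limma adjusted p 0.00993), and 9.93% of its 50-base words also occur in the related gene Prps1l3. Prps2 made up 34.4%, 34.8% and 30.7% of the FPKM of the pair in Ctrl and 15.0%, 17.4% and 15.4% in cKO hearts. This share was lower in each cKO heart than in any Ctrl heart (33.3 ± 2.27% and 15.9 ± 1.30%, exact permutation p 0.1, two-sided, adjusted p 0.200 over 4 shares), and 3 against 3 hearts allow no smaller p.

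At the branch from IMP to AMP and GMP, 1 of 4 tested genes rose and 0 fell. It was Impdh1, the second IMP dehydrogenase, at 6.67, 6.73 and 6.91 FPKM in Ctrl and 12.7, 8.32 and 9.68 FPKM in cKO hearts (log2 difference 0.51, limma adjusted p 0.0292). That call was lost in 5 of 14 alternatives, among them without Ctrl replicate 1 (limma adjusted p 0.0791), Ctrl replicate 2 (0.0820), Ctrl replicate 3 (0.0743) and cKO replicate 3 (0.0604). Impdh2 made up 57.2 ± 1.94% of the FPKM of both dehydrogenases in Ctrl and 58.6 ± 3.90% in cKO hearts, which overlapped (exact permutation p 0.700, adjusted p 0.700). Reads listed under Impdh2-ps are left out of this share, so it depends on how reads were divided between Impdh2 and its pseudogene. The adenylosuccinate synthases Adssl1 and Adss did not pass, and Adssl1, the muscle form, made up 96.9 ± 0.0681% and 96.6 ± 0.681% of their FPKM (exact permutation p 0.700, adjusted p 0.700).

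From UMP to CTP, 1 of 3 tested genes rose and 0 fell. Ctps encodes a CTP synthase and rose from 15.4, 12.5 and 10.2 FPKM in Ctrl to 42.2, 36.7 and 32.3 FPKM in cKO hearts, 2.92 times in the mean (log2 difference 1.48, limma adjusted p 0.00154). The increase was larger than the spread within either group, and the call was kept in all 14 alternatives. Its isoform Ctps2 was at 2.09 and 2.17 FPKM in the mean (log2 difference 0.03, 95% confidence interval -0.27 to 0.34, limma adjusted p 0.861). The share of Ctps2 was 11.6%, 12.8% and 19.1% in Ctrl and 6.08%, 4.78% and 5.69% in cKO hearts, without overlap (exact permutation p 0.1, the smallest possible, adjusted p 0.200).

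**Figure D3:**
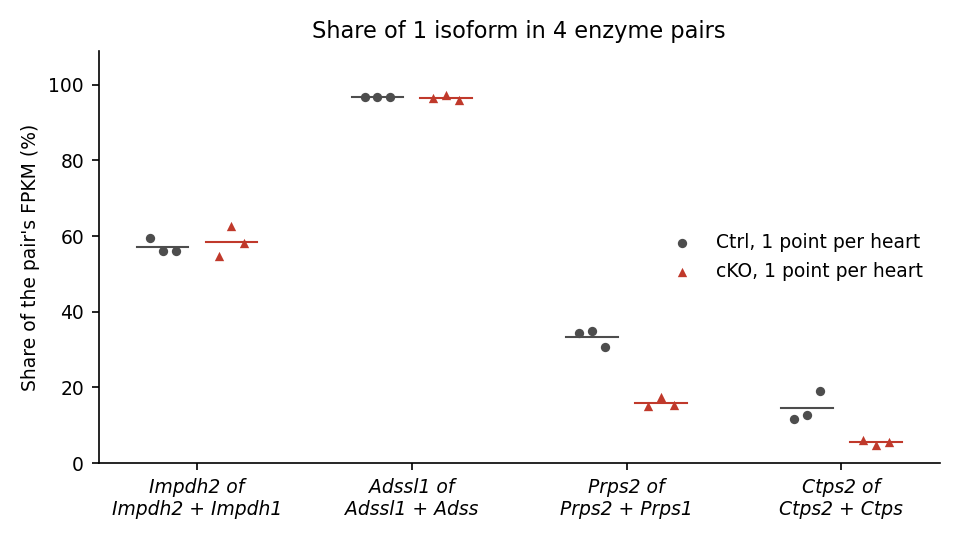
Share of 1 isoform in the summed FPKM of 4 enzyme pairs, in percent, with 1 point for each Ctrl (circles) and cKO (triangles) heart and a line at the group mean. The shares of Prps2 and Ctps2 are lower in all 3 cKO hearts than in any Ctrl heart (means of 33.3% and 15.9% for Prps2, and of 14.5% and 5.52% for Ctps2), and those of Impdh2 and Adssl1 overlap.

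Nucleotide salvage, which reuses bases and nucleosides, had 6 higher and 2 lower of 12 tested genes. The largest increase was in Uck2, a uridine-cytidine kinase, from 12.0 ± 1.90 FPKM in Ctrl to 92.6, 82.4 and 60.3 FPKM in cKO hearts, 6.56 times in the mean (log2 difference 2.60, limma adjusted p 0.000426). Upp1, a uridine phosphorylase, rose from 2.69 ± 0.695 to 8.07 ± 1.56 FPKM (log2 difference 1.30, limma adjusted p 0.00310). Aprt, adenine phosphoribosyltransferase, rose from 7.83 ± 1.20 to 18.6 ± 3.72 FPKM (log2 difference 1.14, limma adjusted p 0.00299). Thus the 3 largest increases were in enzymes for pyrimidine nucleosides and for adenine. The 2 lower genes were Adk, adenosine kinase (log2 difference -0.38, limma adjusted p 0.0198), and Dguok, the mitochondrial deoxyguanosine kinase (-0.34, limma adjusted p 0.0106). The call of Adk was lost without Ctrl replicate 2 (limma adjusted p 0.0601), Ctrl replicate 3 (0.0571) or cKO replicate 3 (0.0598), and with scaling to total reads those of Adk (-0.24, limma adjusted p 0.0527) and Dguok (-0.22, limma adjusted p 0.0587) were lost.

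Deoxynucleotide supply had 2 higher and 2 lower of 7 tested genes. Dctd, deoxycytidylate deaminase, rose from a mean of 0.192 to 1.20 FPKM (log2 difference 0.89, limma adjusted p 0.00291). It rested on 14, 5 and 24 reads in Ctrl and 54, 113 and 108 reads in cKO hearts, and the log2 difference was 2.82 with voom and 2.22 with a pseudocount of 0.1. Dtymk, thymidylate kinase, rose by 0.33 on the log2 scale (limma adjusted p 0.0411), a call lost in 6 of 14 alternatives, among them without Ctrl replicate 1 or 3 or any 1 of the cKO hearts (limma adjusted p 0.0594 to 0.124). Dut, which removes dUTP, fell by 0.85 on the log2 scale (limma adjusted p 0.00111), and Rrm2b, a ribonucleotide reductase subunit that is expressed outside the cell cycle, fell by 0.38 (limma adjusted p 0.0154, and 0.0590 without Ctrl replicate 2).

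Among the nucleotide kinases, 2 rose and 3 fell of 8 tested. Nme1, a nucleoside diphosphate kinase, rose from 2.63 to 6.08 FPKM (log2 difference 0.96, limma adjusted p 0.000956). Ak1, the cytosolic adenylate kinase of muscle, fell from 207 to 132 FPKM (-0.67, limma adjusted p 0.0114). Ak3 in the mitochondrial matrix fell by 0.49 on the log2 scale (limma adjusted p 0.00453), and Guk1, guanylate kinase, by 0.33 (limma adjusted p 0.0133), a call lost with scaling to total reads (-0.18, limma adjusted p 0.0606).

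Nucleotide breakdown had 3 higher and 4 lower of 14 tested genes. Those that rose were all 5′-nucleotidases: Nt5e, the enzyme on the cell surface, from 2.39 to 6.10 FPKM (log2 difference 1.06, limma adjusted p 0.00212), Nt5c (0.83, limma adjusted p 0.00749) and the mitochondrial Nt5m (0.22, limma adjusted p 0.0460, lost in 9 of 14 alternatives, among them without any 1 of the 6 hearts, limma adjusted p 0.0637 to 0.138). Other 5′-nucleotidases fell, Nt5c1a, which acts on AMP, from 11.3 to 5.92 FPKM (-0.84, limma adjusted p 0.00745) and Nt5c3 by 0.69 on the log2 scale (limma adjusted p 0.00553). Xdh, xanthine dehydrogenase at the end of purine breakdown, fell from 18.1 to 10.6 FPKM (-0.74, limma adjusted p 0.0102). Xdh is known to be expressed in capillary endothelium, and 4 of the 7 endothelial markers were also lower (summed level 132 to 155 FPKM in Ctrl and 88.7 to 105 FPKM in cKO hearts); their part in its fall was not tested.

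The list for formyl groups and glycine, on which Gart and Atic draw, had 6 higher and 1 lower of 9 tested genes. These counts do not give a direction of supply, because the list also holds formyl-tetrahydrofolate dehydrogenases, which use up the formyl donor. Mthfd2, which oxidises methylene-tetrahydrofolate in mitochondria, went from 2.32 to 95.3 FPKM in the mean (log2 difference 4.90, limma adjusted p 8.79e-05), the largest change in the lists. Shmt2, which makes glycine and methylene-tetrahydrofolate from serine in mitochondria, rose from 15.6 to 51.0 FPKM (1.64, limma adjusted p 0.000548). Aldh1l2, the mitochondrial formyl-tetrahydrofolate dehydrogenase, rose from 0.821 to 8.69 FPKM (2.42, limma adjusted p 0.000202). Its cytosolic relative Aldh1l1 fell from 0.858 to 0.350 FPKM (-0.46, limma adjusted p 0.00607, and -1.25 with voom, on 75, 74 and 100 reads in Ctrl and 25, 41 and 38 reads in cKO hearts).

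Of the nucleoside transporters, 2 fell and 0 rose of 4 tested. Slc28a2, a concentrative transporter of purine nucleosides, fell from 5.40 to 3.41 FPKM (log2 difference -0.55, limma adjusted p 0.0163), a call lost without Ctrl replicate 1 or cKO replicate 3, with a highest limma adjusted p of 0.0550. Slc29a1, the equilibrative transporter, fell by 0.30 on the log2 scale (limma adjusted p 0.0488), a call lost in 12 of 14 alternatives, among them without any 1 heart other than cKO replicate 2 (limma adjusted p 0.0970 to 0.132), and with scaling to total reads (-0.16, limma adjusted p 0.253).

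**Figure D4:**
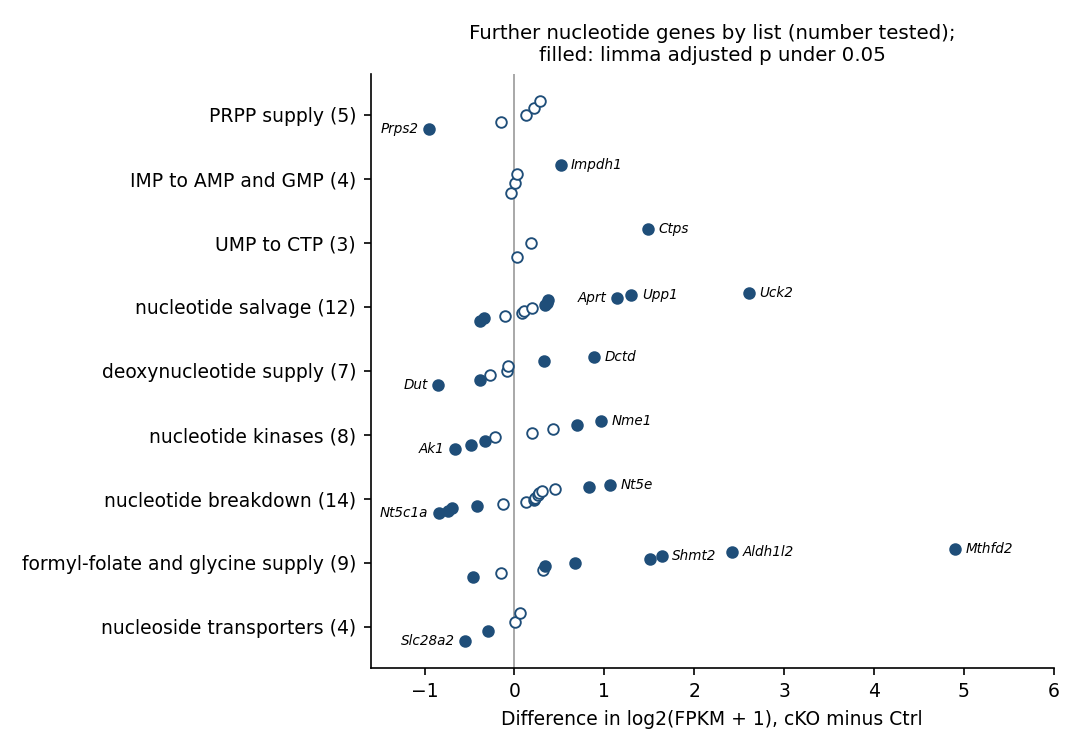
Difference between cKO and Ctrl hearts in log2(FPKM + 1) for each tested gene of the 9 further lists (number tested in parentheses), filled where the limma adjusted p was under 0.05. Names mark some of the genes with the largest called changes within their list, and not every large change. The points run from -0.95 for Prps2 to 4.90 for Mthfd2, and every list except PRPP supply and the transporters has at least 1 filled point to the right of 0.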

How the data were processed

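RNA of 3 Ctrl and 3 cKO mouse hearts was sequenced from poly-A selected, paired-end libraries. Per the labels' processing notes, the tools were HISAT2 2.0.5, featureCounts 1.5.0-p3 and DESeq2 1.16.1. The authors deposited FPKM for 54532 genes, computed from read counts and gene length, and the deposited gene length, an other value per gene, was used as given. The notes name mm9, but the coordinates of the table are those of GRCm38: all 54409 identifiers shared with GENCODE mouse release 21 lie on the same chromosome and 53499, all 10 members among them, have identical start and end. How strand and multiply mapped reads were counted is not given in the sources used here. Authors' comparisons were not used, and 0 value columns belonged to no sample.

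FPKM times gene length was, in each library, a whole multiple of what 1 read is worth for 100% of the values (tolerance 0.01 of a read, largest deviation 0.00015), which gave 19464289 to 24875499 reads in Ctrl and 15989322 to 23749804 in cKO libraries. Groups and replicate numbers came from the sample titles, which do not state that each replicate is a separate animal, so p-values measure the spread between these samples. Values were compared as log2(FPKM + 1) for the 12944 genes that averaged 0.5 FPKM or more over the 6 hearts, by a trended eBayes fit of limma 3.58.1 under R 4.3.3 (two-sided and without covariates, Benjamini-Hochberg over all genes tested, threshold 0.05). The study used the same groups without covariates on counts. The 4 isoform shares were compared by exact permutation, two-sided, with a smallest p of 0.1. Errors given as ± are SD over 3 hearts.

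The members and all lists were chosen with earlier results of these data known. Named were the 10 members, Mrps5, the genes of the 4 shares, Myc, Atf4 and, in each further list, up to 3 genes with the largest called increase and up to 3 with the largest called decrease. A gene that this rule selects is not reported here, though it remains in the counts. Ndufaf3, 2310040G07Rik, Impdh2-ps and Prps1l3 are named because they overlap or share sequence with these, and the sex-linked genes as a check of the labels. The alternatives tried were 2 other scalings (median of ratios, and totals without mtDNA-encoded genes), 2 other filters (none, and a mean of 1 FPKM), a pseudocount of 0.1, voom on the recovered reads, eBayes without trend, a replicate block, leaving out each heart in turn and, for the shares, reads in place of FPKM. Scaling to total reads was added after seeing the data, because the library sizes implied by the FPKM values differed from the totals in opposite directions in the groups. Promoter windows are RefSeq sequences of GRCm38.p6.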

Additional observations from a re-analysis of the deposited data

How the results depend on the processing

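Over 14 alternatives the 10 members gave 140 comparisons with the reported values, in which 11 calls were lost, 0 were gained and 1 direction reversed, all in Ppat, Gart, Adsl and Dhodh. Members called higher were 6, and 4 to 5 when any heart was left out; members called lower were 1, and 0 to 1 when any heart was left out (0 without Ctrl replicate 1 and without cKO replicate 3). Dhodh reversed to 0.0017 when scaled without mtDNA-encoded genes. Scaling to total reads, added after seeing the data, gave 6 members higher and 0 lower (Ppat lost), reversed Dhodh to 0.05 and Adssl1 to 0.11, let Prps1 pass (0.36), gave 28 higher and 11 lower in the further lists and 3274 higher and 1381 lower over all genes. Of the uncalled neighbours, Adssl1 reversed to 0.04 when scaled without mtDNA-encoded genes, to 0.05 without cKO replicate 1 and to 0.07 without cKO replicate 3, and passed at -0.25 without cKO replicate 2 (limma adjusted p 0.0456). Ctps2 lay between -0.09 and 0.11 when any heart was left out, reversed at -0.03 without Ctrl replicate 2 and at -0.09 without cKO replicate 1, and Prps1 passed with median-of-ratios scaling (0.24) and without mtDNA-encoded genes (0.30). The further lists had 21 higher and 15 lower, and 15 to 20 and 11 to 16 when any heart was left out. Over all genes tested, 2110 were higher and 2205 lower, and 1396 to 1977 and 1423 to 2011 when any heart was left out, fewest without Ctrl replicates 2 and 3. Scaling by totals free of mtDNA-encoded genes called 2649 of all genes higher and 1621 lower, and moved the median log2 difference of all genes from -0.02 to 0.05. The difference in the Impdh2 share was 1.42 percentage points, and -0.591 to 3.30 with a heart left out (reversed without cKO replicate 2), and that of Adssl1 was -0.227, and -0.597 to 0.0731 (reversed without cKO replicate 3). The Prps2 share difference stayed between -18.7 and -16.6 and that of Ctps2 between -10.4 and -6.67 with a heart left out, and they were -22.3 and -11.7 on reads. Same-numbered hearts did not deviate together (correlations of -0.0554, 0.175 and -0.0148), so the replicate numbers were not taken as pairs. With the replicate block 5 members were higher and 1 lower, and over all genes 1874 were higher and 1982 lower. For each of these values the cause was not tested. Depth limits Pfas, Dhodh and Umps most, with 148 to 416 reads.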

Other observations

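Of 7 regulators listed with the pathway, 6 were tested, of which 2 were higher and 1 was lower in cKO hearts. Over all genes tested, 16.3% were higher and 17.0% were lower. Atf4, which encodes a transcription factor of the amino acid response, had levels of 66.2, 153 and 125 FPKM in the cKO hearts (replicates 1, 2 and 3) against a mean of 39.7 FPKM in Ctrl (log2 difference 1.43, limma adjusted p 0.00998). Myc followed at 4.89, 7.93 and 9.26 FPKM in the cKO hearts (mean of 1.99 FPKM in Ctrl, log2 difference 1.50, limma adjusted p 0.00922). Max, the partner of MYC, fell by 0.73 on the log2 scale (limma adjusted p 0.0197), a call lost with no filter and without Ctrl replicate 3 (highest limma adjusted p 0.0678). The other 3 tested were not called.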
